A study of Mus musculus with 8 samples.

Results

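The genes described here are the core of ductal bile secretion, the machinery with which cholangiocytes move chloride, bicarbonate and water into bile. They are 10 of the 46603 rows of the gene count table, picked by name, with earlier results of these data known: the receptors Sctr and Gpbar1, the adenylyl cyclase Adcy6, the chloride channels Cftr and Ano1, the transporters Slc4a2, Slc9a3 and Slc12a2, the carbonic anhydrase Car2 and the water channel Aqp1. The study asked which transcripts set slowly dividing biliary cells apart from the other biliary cells of the same liver. Of the 8 libraries 4 came from liver label-retaining cells (LLRCs, sorted as EGFP+EpCAM+CD45-) and 4 from EGFP-EpCAM+CD45- cells (non-LRCs), 1 of each from mice JV602, JV621, JV624 and JV6314. All mice carried 1 copy of R26rtTA, a doxycycline-dependent activator driven from the broadly active Rosa26 locus, and 1 copy of H2B-EGFP, a histone fused to a green fluorescent protein. Both groups were therefore of the same genotype, on a mixed C57BL/6 and CBA background, and both had been exposed to doxycycline from birth to postnatal day 5 and were sorted at 8 weeks. Cells that divide dilute the label, so EGFP at sorting marks few divisions since then. The label was not restricted to biliary cells when it was given, and EpCAM and CD45 were the only lineage gates. Before sorting, the authors spun out hepatocytes at low speed, lysed red blood cells and depleted leukocytes with CD45 beads.

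In the textbook scheme, secretin from the gut binds its receptor on the basolateral membrane of large cholangiocytes, adenylyl cyclase makes cyclic AMP, and protein kinase A opens the apical chloride channel CFTR. Chloride then leaves the cell and is exchanged for bicarbonate by the anion exchanger AE2 (Slc4a2), while carbonic anhydrase supplies the bicarbonate and water follows through aquaporins. A second route runs through extracellular ATP, intracellular calcium and the chloride channel TMEM16A (Ano1).

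Per library, the summed counts ran from 7860021 to 9851819 in LLRCs and from 4670132 to 8056103 in non-LRCs, and 3 counts corresponded to 0.291 to 0.626 CPM, the library-size-scaled count (TMM-scaled, the unit used throughout). All 12 cholangiocyte markers examined were read in both groups, with a sum of 115600 to 221800 CPM in LLRCs and 67150 to 162200 CPM in non-LRCs, most of it Spp1. Markers of other cells were not equal between the sorts: 11 endothelial markers summed to 29.0 to 51.3 CPM in LLRCs and 190.6 to 644 CPM in non-LRCs, and 7 pancreatic acinar markers reached 1040 CPM in the non-LRC library of JV6314 against at most 0.388 CPM in any LLRC library. All endothelial markers but Tie1 and Lyve1 were tested. Each was lower in LLRCs at an unadjusted p below 0.05 and none at an adjusted p below 0.05 (edgeR). Of all genes tested 3.56% were lower at that unadjusted p. Hepatocyte markers summed to 2898 to 3212 CPM in LLRCs, mostly Alb, and 2130 to 6650 CPM in non-LRCs. Without Alb the other 9, each with a lower mean in LLRCs, summed to 669.6 to 906.6 and 623.5 to 3877 CPM. Of these 9, 6 were lower at an unadjusted p below 0.05 (edgeR), against the same 3.56% of all genes tested. Smooth muscle markers summed to 0.882 to 4.33 CPM and 2.76 to 76.4 CPM, in LLRCs and non-LRCs respectively. Erythroid markers reached 111.6 CPM and 457.6 CPM in the LLRC and non-LRC libraries of JV624. Of 10 leukocyte and Kupffer markers 3 were read in LLRCs and 8 in non-LRCs, with sums of 24.3 to 59.1 and 25.9 to 83.7 CPM, mostly Cd74, and Cd3e and Cd79a were at 0 in all libraries. Ptprc, which encodes CD45, the antigen gated against, had 5, 34, 14 and 59 counts in LLRCs and 0, 0, 0 and 7 in non-LRCs, the higher value lying in the LLRCs of all 4 mice (edgeR, unadjusted p = 0.0468, adjusted p = 0.957). The 7 stellate and fibroblast markers summed to 2279 to 9691 CPM and 3352 to 8711 CPM, mostly Rgs5, whose mean was higher in LLRCs. The other 6, Lrat and Dcn among them, each had a lower mean in LLRCs and summed to 82.4 to 574.6 CPM against 536.6 to 2528 CPM. Of the 3 tested, 2 were lower at an unadjusted p below 0.05 (edgeR), against 3.56% of all genes tested, and none at an adjusted p below 0.05.

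RefSeq promoter windows (GRCm38.p6) were at hand for 6 of the 10 genes. The 250 bases before the start are printed for Cftr and Aqp1, the genes with the largest differences between the sorts, with each GC box (GGGCGG, searched on both strands) in capitals. The windows are chr6:18170437-18170686 for Cftr and chr6:55336049-55336298 for Aqp1, both on the plus strand and read 5′ to 3′.
Cftr: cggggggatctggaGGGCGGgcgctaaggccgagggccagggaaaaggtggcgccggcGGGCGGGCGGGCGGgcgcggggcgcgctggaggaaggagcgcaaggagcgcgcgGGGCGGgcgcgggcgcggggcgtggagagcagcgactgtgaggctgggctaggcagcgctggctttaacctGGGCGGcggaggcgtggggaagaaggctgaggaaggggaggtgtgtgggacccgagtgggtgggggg
Aqp1: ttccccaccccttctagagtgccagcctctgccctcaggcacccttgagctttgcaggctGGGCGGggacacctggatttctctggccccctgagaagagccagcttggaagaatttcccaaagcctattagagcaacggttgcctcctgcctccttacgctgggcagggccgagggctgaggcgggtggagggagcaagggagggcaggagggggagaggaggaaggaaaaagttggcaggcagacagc
The Cftr stretch was 76.4% G and C and held 6 GC boxes, at positions -236, -192, -188, -184, -138 and -67 from the start, of which those at -192, -188 and -184 overlap. The Aqp1 stretch was 62.0% G and C and held 1 box, at -190. In the same search Ano1 had 4 boxes, Slc9a3 had 3, and Gpbar1 and both windows of Slc4a2 had none. A GC box occurs in 35.7% of all 32851 windows of 300 bases. The GC box was added to the search after these windows had been read, so its counts are a description only. The motifs that follow had been chosen beforehand. The cyclic AMP response element TGACGTCA, found in 1.79% of all windows, its core TGACG, found in 20.8%, and the TATA box letters TATAAA, found in 13.6%, were in no window of these genes.

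As a group the secretion genes did not move together between LLRCs and non-LRCs. Cftr, the chloride channel activated through protein kinase A, was on average 2.7-fold higher in LLRCs, and the water channel Aqp1 was 16.8-fold lower. The other members tested differed by less than their spread. Of the 10 genes 8 passed the filter on low counts. With edgeR's quasi-likelihood test none of the 8 had an adjusted p below 0.05, as was so for all 13605 genes tested (0%), of which 702 had an unadjusted p below 0.05. Over all genes DESeq2 called 221 and limma-voom with sample quality weights 0. At an unadjusted p below 0.05, Cftr was the only member higher in LLRCs, against 1.6% of all genes tested, and Aqp1 the only member lower, against 3.56%. The fitted log2 fold change was above 0 for 4 of the 8 and below 0 for 4, with a median of -0.02, and the median over all genes tested was -0.01. These are bulk libraries, in which fewer cells of a type and less RNA per cell cannot be told apart.

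**Figure D1:**
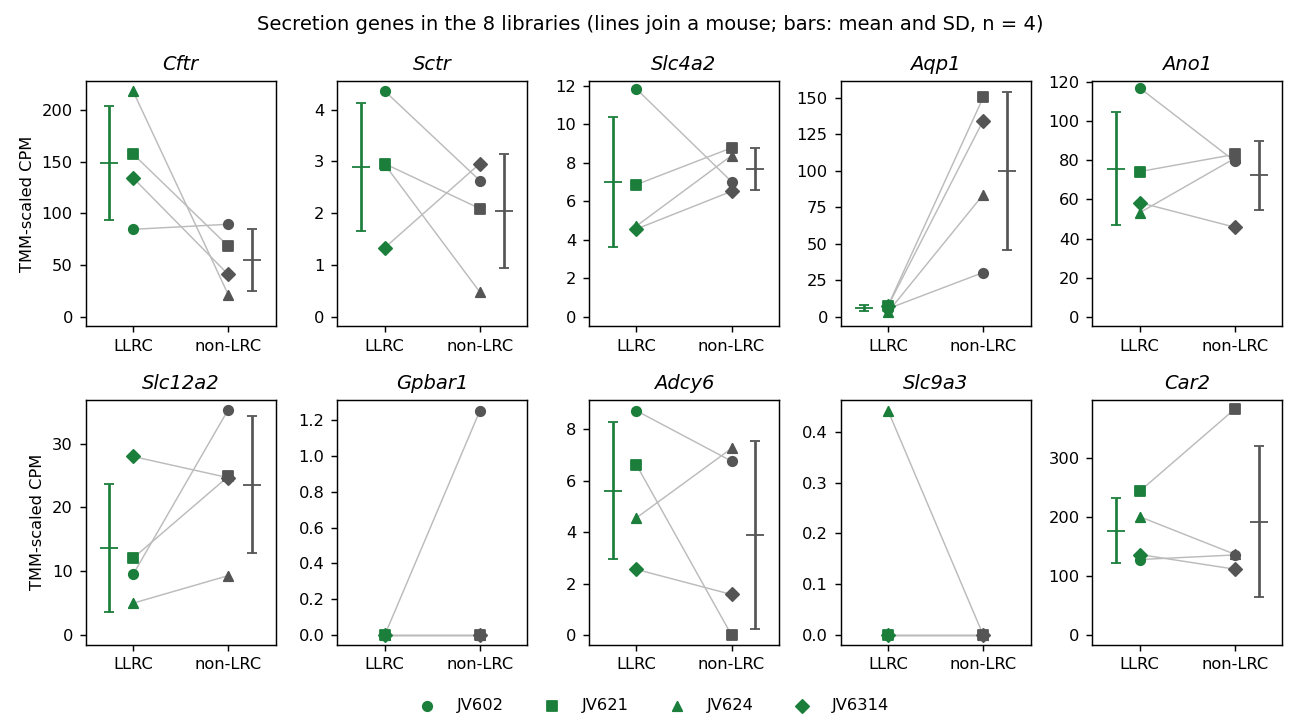
TMM-scaled CPM of the 10 secretion genes in the 8 libraries, with LLRC and non-LRC libraries of a mouse joined by a line and the mean and SD of each group (n = 4) beside the points, except for Gpbar1 and Slc9a3, which were read in 1 library each. The LLRC points of Aqp1 all lie below the non-LRC points, those of Cftr lie above in all mice but JV602, and the other genes overlap.

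The secretin receptor Sctr (chr1:120006894-120063536, plus strand) starts the cascade. It had, with mice ordered as JV602, JV621, JV624, JV6314 here and in all later lists, 45, 25, 20 and 12 counts in LLRCs and 21, 10, 3 and 15 counts in non-LRCs. Scaled, this was 4.36, 2.96, 2.94 and 1.33 CPM against 2.63, 2.09, 0.474 and 2.96 CPM. Sctr was thus low in every library and the groups overlapped, with the lowest value in the non-LRC library of JV624. The log2 fold change of LLRCs over non-LRCs was 0.51 ± 0.68 (SE; edgeR adjusted p = 0.9999), with a 95% interval of -1.02 to 2.04. Gpbar1 (TGR5; chr1:74278550-74279624, plus strand), a bile acid receptor, was at 0 in all libraries except the non-LRC library of JV602, which held 10 counts (1.25 CPM). Gpbar1 did not pass the count filter of the edgeR test, and no difference between the sorts was detectable at this depth.

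Adcy6 (chr15:98589973-98610076, minus strand) encodes a cyclase that turns receptor activity into cyclic AMP. It had 90, 56, 31 and 23 counts in LLRCs and 54, 0, 46 and 8 counts in non-LRCs. The levels were 8.72, 6.62, 4.56 and 2.55 CPM in LLRCs and 6.76, 0, 7.26 and 1.58 CPM in non-LRCs. The groups overlapped, and within the non-LRCs the libraries of JV602 and JV624 stood well above the other two. The log2 fold change was 0.51 ± 1.04 (SE; edgeR adjusted p = 0.9999), and its interval of -1.82 to 2.85 was the widest of the members tested. The library at 0, non-LRC JV621, had the fewest genes detected (14234), and without it the log2 fold change was 0.12. Over the 24 alternatives it ran from 0.02, without mouse JV621, to 1.08, without mouse JV624. The exons of Adcy6 share 8.92% of their bases with a gene on the other strand, which the unstranded counting cannot place.

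Cftr (chr6:18170687-18322768, plus strand), the channel defective in cystic fibrosis, had 872, 1332, 1484 and 1210 counts in LLRCs and 714, 327, 135 and 207 counts in non-LRCs. Scaled, the LLRC libraries held 84.5, 157.5, 218.3 and 134.3 CPM and the non-LRC libraries 89.4, 68.3, 21.3 and 40.8 CPM. Cftr was higher in the LLRCs of 3 of 4 mice, and in JV602 both sorts had nearly the same level, so the groups overlapped by that mouse alone. The difference was largest in JV624, where the LLRC library was the highest and the non-LRC library the lowest of all 8. Within JV602, JV621, JV624 and JV6314 the log2 ratio of LLRC to non-LRC was -0.08, 1.20, 3.33 and 1.71. Means were 148.7 ± 55.5 CPM in LLRCs and 55.0 ± 30.0 CPM in non-LRCs (SD, n = 4 each). The log2 fold change was 1.44 ± 0.47 (SE) with an interval of 0.36 to 2.51, and edgeR's quasi-likelihood test across all genes gave an unadjusted p of 0.0141 and an adjusted p of 0.688. An exact two-sided permutation test of the CPM values gave p = 0.0571, where 0.0286 is the smallest that 4 against 4 allows. Without both libraries of JV624 the log2 fold change was 0.92, and without the non-LRC libraries of JV624 and JV6314 it was also 0.92. Those 2 libraries had the highest hepatocyte (6650 and 4977 CPM), smooth muscle (76.4 and 42.6 CPM) and erythroid (457.6 and 16.0 CPM) marker sums of the non-LRCs, and the part of other cells in the Cftr difference was not tested.

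Cftr was also set against 7 cholangiocyte markers (Epcam, Krt7, Krt8, Krt18, Krt19, Sox9 and Cldn7), whose summed level was 1901 to 2496 CPM in the 8 libraries. As a percentage of that sum Cftr came to 3.39, 6.98, 9.37 and 5.85 in LLRCs and to 4.00, 3.59, 0.998 and 1.86 in non-LRCs. The 3 LLRC libraries of JV621, JV624 and JV6314 were again the highest, and JV602 was again alike in both sorts. Ano1 (chr7:144588549-144751974, minus strand), the calcium-activated chloride channel, did not follow Cftr. It had 117.1, 74.3, 53.2 and 58.4 CPM in LLRCs and 79.5, 83.1, 81.1 and 45.8 CPM in non-LRCs. The groups overlapped, and the log2 fold change was 0.07 ± 0.34 (SE; edgeR adjusted p = 0.9999) with an interval of -0.71 to 0.84. Its sign turned in 6 of 24 alternatives.

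**Figure D2:**
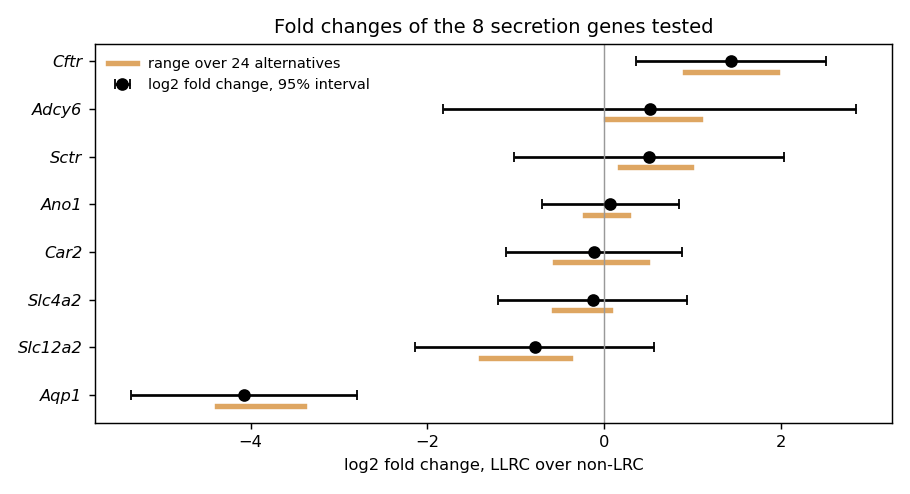
Fitted log2 fold change of LLRCs over non-LRCs for the 8 secretion genes tested (points, 95% interval; edgeR quasi-likelihood, 4 libraries a group), with the range over 24 alternative fits in orange. Only the intervals of Cftr (0.36 to 2.51) and Aqp1 (-5.35 to -2.79) leave out 0, and the other intervals reach up to 2.85 on the log2 scale.

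The anion exchanger Slc4a2 (AE2; chr5:24423837-24440950, plus strand), which trades chloride for bicarbonate at the apical membrane, was expressed at a low level. LLRC libraries held 11.8, 6.86, 4.71 and 4.55 CPM and non-LRC libraries 7.01, 8.77, 8.37 and 6.51 CPM. The non-LRC values lay within the LLRC range, and the log2 fold change was -0.13 ± 0.48 (SE; edgeR adjusted p = 0.9999) with an interval of -1.20 to 0.94, and its sign turned in 3 of 24 alternatives. Of its exon bases 14.9% are shared with genes on the other strand, Fastk and Gm22333. Slc12a2 (NKCC1; chr18:57878678-57946821, plus strand), a basolateral cotransporter that loads cells with chloride, had 9.50, 12.1, 5.00 and 28.0 CPM in LLRCs and 35.3, 24.9, 9.31 and 24.7 CPM in non-LRCs. It was lower in the LLRCs of 3 of 4 mice, JV6314 being the exception, and the groups overlapped. The log2 fold change was -0.79 ± 0.60 (SE; edgeR adjusted p = 0.9999) with an interval of -2.14 to 0.56. Without the LLRC library of JV6314 it was -1.40, and without mouse JV602 it was -0.39. Slc9a3 (NHE3; chr13:74121457-74169442, plus strand), an apical sodium and proton exchanger that takes up fluid, was at 0 in all libraries but the LLRC library of JV624, with 3 counts.

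Car2 (chr3:14886273-14900770, plus strand), the cytosolic carbonic anhydrase that forms bicarbonate, had the highest level of the members per kilobase of exon. Its levels were 128.0, 243.8, 200.6 and 136.5 CPM in LLRCs and 135.8, 383.2, 136.9 and 111.7 CPM in non-LRCs. In both sorts JV621 had the highest value. The mean of the non-LRCs was drawn up by the non-LRC library of JV621, which had the fewest genes detected (14234). The log2 fold change was -0.11 ± 0.44 (SE; edgeR adjusted p = 0.9999) with an interval of -1.11 to 0.88. Without the non-LRC library of JV621 it was 0.48, and its sign turned in 6 of 24 alternatives.

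Aqp1 (chr6:55336432-55348555, plus strand) showed the largest difference of the 10 genes. It had 56, 64, 22 and 66 counts in LLRCs and 241, 719, 529 and 680 counts in non-LRCs. In CPM this was 5.43, 7.57, 3.24 and 7.33 against 30.2, 150.1, 83.5 and 134.2. Every LLRC library lay below every non-LRC library, which held for 1.91% of all genes tested, while the opposite order, every LLRC library above, held for 2.15%. Means were 5.89 ± 2.01 CPM in LLRCs and 99.5 ± 54.3 CPM in non-LRCs (SD, n = 4 each), and the log2 ratio within JV602, JV621, JV624 and JV6314 was -2.37, -4.22, -4.49 and -4.11. The log2 fold change was -4.07 ± 0.57 (SE), with an interval of -5.35 to -2.79. By edgeR's quasi-likelihood test p was 4.675e-05 and the adjusted p 0.0809, and an exact two-sided permutation test gave 0.0286, the smallest p possible. These permutation tests were made for all 10 members, exchange labels over all 8 libraries and are not adjusted. With labels exchanged only within a mouse, the exact permutation p was 0.125 for Aqp1, the smallest that 4 pairs allow, and 0.25 for Cftr, so that no member could reach 0.05 in that test.

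The call on Aqp1 depended on the test, while its direction was the same in all 24 alternatives. DESeq2 gave a log2 fold change of -4.13 and an adjusted p of 3.487e-10, where 1.26% of all genes were called lower in LLRCs. The edgeR exact test gave an adjusted p of 1.673e-07 (0.933% called lower) and the newer dispersion form of edgeR's quasi-likelihood test 0.0222 (0.448%). An edgeR fit with no expression filter gave 0.0490 (0.0362%), and one that left out non-LRC JV602 gave 0.0378 (0.0425%). With limma-voom and sample quality weights the adjusted p was 0.0837, and no gene was called lower (0%). Over the alternatives the log2 fold change ran from -4.38 to -3.40 and the adjusted p up to 0.483.

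Aqp1 is known in cholangiocytes and also in the endothelium of many vessels, and the endothelial markers moved with it. Their summed level, mouse by mouse, was 29.0, 51.3, 36.0 and 34.5 CPM in LLRCs and 190.6, 534.4, 390.2 and 644 CPM in non-LRCs. All 11 were read in both groups, with Tie1 and Lyve1 at 0 in at least 1 library of each group. Divided by this sum, Aqp1 was 0.187, 0.148, 0.0898 and 0.212 in LLRCs and 0.158, 0.281, 0.214 and 0.208 in non-LRCs. These ratios overlapped between the sorts, whereas the CPM values of Aqp1 did not. The part of endothelial RNA in the difference in Aqp1 was not tested.

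**Figure D3:**
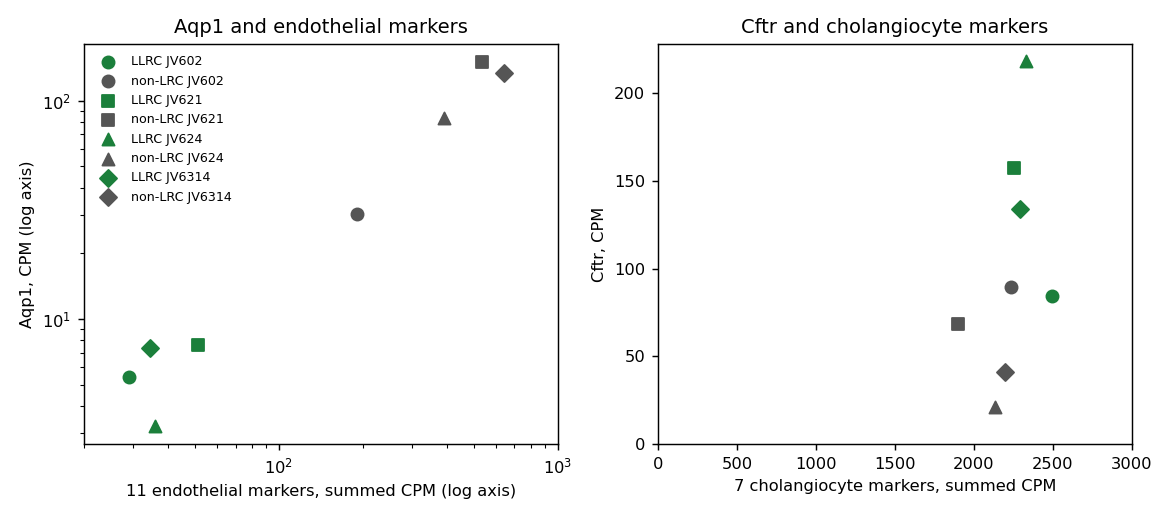
Left, Aqp1 against the summed level of 11 endothelial markers, both in CPM on log axes; right, Cftr against the summed level of 7 cholangiocyte markers, both in CPM on linear axes; each point is 1 library, green for LLRC and grey for non-LRC, with a shape for each mouse. LLRC libraries sit at the lower left of the left panel (29.0 to 51.3 CPM of endothelial markers) and non-LRC libraries at the upper right (190.6 to 644), while in the right panel the marker sums lie between 1901 and 2496 and Cftr varies from 21.3 to 218.3 CPM.

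To set the genes against each other, CPM was divided by the kilobases of annotated exon. In LLRCs the order of levels was Car2 (73.2 ± 22.7 CPM per kb, SD, n = 4), Cftr (19.2 ± 7.15), Ano1 (12.1), Aqp1 (2.24 ± 0.766), Sctr (1.44), Slc12a2 (1.25), Slc4a2 (0.840), Adcy6 (0.828), Slc9a3 and Gpbar1. Among neighbours in this order only Car2 and Cftr, Ano1 and Aqp1, and Adcy6 and Slc9a3 had ranges that did not overlap. In non-LRCs the order was Car2 (79.2 ± 52.9 CPM per kb), Aqp1 (37.9 ± 20.7), Ano1 (11.6), Cftr (7.08 ± 3.86), Slc12a2 (2.16), Sctr (1.01), Slc4a2 (0.921), Adcy6 (0.575), Gpbar1 and Slc9a3, and all neighbours overlapped. The order of the low genes depended on the length used: with the longest transcript, Slc12a2 (2.09) and Slc4a2 (1.64) stood above Sctr (1.44) in LLRCs, and Slc4a2 (1.80) above Sctr (1.01) in non-LRCs. Car2 lay above 95.4% of 13561 tested genes of known length in LLRCs and above 95.6% in non-LRCs. Cftr lay above 82.6% and 60.5%, and Aqp1 above 33.5% and 90.4%, so that by this percentage Aqp1 moved most. In the order of the members Cftr and Aqp1 exchanged places. The receptor, the cyclase and the exchanger, which stand at the start and the end of the secretin route, ranked low in both sorts, with Sctr above 23.7% and 16.1%, Adcy6 above 13.5% and 8.6%, and Slc4a2 above 13.7% and 14.5%.

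Patterns over the 8 libraries were compared by the root-mean-square difference of centred log2 values. The nearest to Aqp1, whose own spread was 2.03, were Bmp4 (0.279), Slc43a3 (0.376) and Tek (0.381), an endothelial receptor that is among the 11 markers above. Nearest to Cftr, with a spread of 1.01, were Ralgapb (0.310), Sesn3 (0.397) and Trim23 (0.405). Slc12a7 (0.189), a potassium and chloride cotransporter, Sort1 (0.241) and Ip6k1 (0.284) came nearest to Sctr, with a spread of 0.673. For Car2, with a spread of 0.562, they were Bet1 (0.127), Hipk3 (0.156) and Ric8b (0.165).

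Around these 10 genes, 92 further genes of ductal secretion were examined, of which 62 could be tested. None had an adjusted p below 0.05, and the log2 fold change was above 0 for 28 and below 0 for 34, with a median of -0.07. At an unadjusted p below 0.05, 1 gene was higher in LLRCs (1.61%, against 1.6% of all genes tested) and 2 were lower (3.23%, against 3.56%), which is near the share over all genes. In 1 gene every LLRC library lay above every non-LRC library and in 1 gene below, where the shares over all genes were 2.15% and 1.91%.

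These genes were on the list of cyclic AMP input, of which 15 of 24 genes were tested (7 above 0, 8 below, median -0.07). The gene with p below 0.05 and higher in LLRCs was Akap9, which encodes an anchor of protein kinase A. It had 75.3, 91.8, 126.9 and 85.3 CPM in LLRCs and 69.4, 45.9, 45.1 and 42.8 CPM in non-LRCs, without overlap (log2 fold change 0.90 ± 0.29, SE; edgeR adjusted p = 0.665). Vipr1, the receptor of vasoactive intestinal peptide, had 0.969, 0.710, 0.882 and 3.89 CPM in LLRCs and 1.25, 2.72, 16.3 and 30.4 CPM in non-LRCs (-2.95 ± 1.07; edgeR adjusted p = 0.790). Its high values lay in the non-LRC libraries of JV624 and JV6314, the pair with the highest hepatocyte and smooth muscle marker sums given beside Cftr, whose part was not tested. Adcy4, another cyclase, had 0, 3, 1 and 1 counts in LLRCs and 21, 54, 22 and 53 counts in non-LRCs. Scaled for library size its level was 42.9 times as high in non-LRCs, with a 95% counting interval of 18.0 to 134.1 that covers counting error only, and the edgeR adjusted p was 0.124. The groups did not overlap, and as for Aqp1 the libraries high in Adcy4 were those high in endothelial markers, whose part was not tested. Adcy4 was called with DESeq2 (adjusted p = 1.594e-05), with the edgeR exact test (0.000111) and with the newer form of edgeR's quasi-likelihood test (0.0244). The genes of this group with the highest levels per kilobase of exon, the kinase regulatory subunits Prkar1a (314.9 and 330.3 CPM in LLRCs and non-LRCs) and Prkar2a (84.2 and 84.1), the membrane linker Ezr (136.3 and 128.1) and the scaffold Slc9a3r1 (28.5 and 40.2), had edgeR adjusted p-values of 0.9999.

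**Figure D4:**
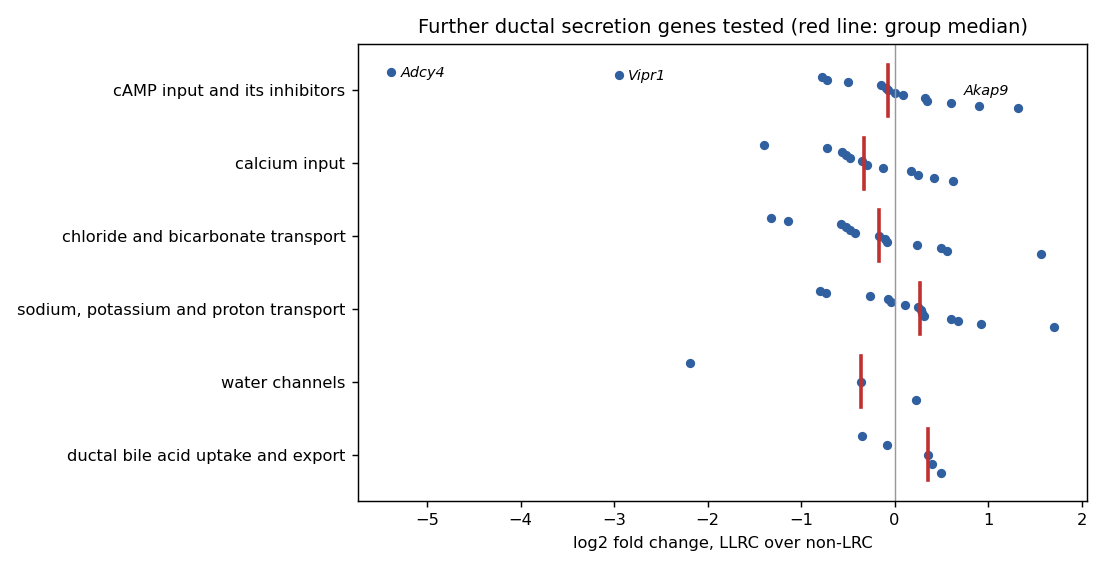
Fitted log2 fold change of LLRCs over non-LRCs for 62 further genes of ductal secretion in 6 groups (each point a gene, red lines the group medians), with the 3 genes at an unadjusted p below 0.05 named. Most points lie near 0 and the group medians run from -0.35 to 0.36; the position of Adcy4, with 0 to 3 counts per LLRC library, depends on the prior count of the fit.

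The calcium route had 12 of 15 genes tested, 4 above and 8 below 0, with a median of -0.32. Its genes with the highest levels per kilobase of exon were the cation channel Pkd2 (392.8 and 292.6 CPM), the ATP-gated channel P2rx4 (67.8 and 59.9) and the nucleotide receptor P2ry1 (13.4 and 35.2, the latter drawn up by 128.8 CPM in non-LRC JV621), and the inositol trisphosphate receptor Itpr1 had 39.8 and 58.8 CPM. Itpr1 was lower in the LLRCs of all 4 mice, but the groups overlapped (-0.56 ± 0.38, SE; edgeR adjusted p = 0.9999). Of all genes tested 5.53% were lower in LLRCs in every mouse. For chloride and bicarbonate transport 13 of 20 genes were tested, 4 above and 9 below 0, with a median of -0.16. The volume-regulated channel subunit Lrrc8a (152.2 and 162.9 CPM, with 66.2% of its exon bases shared with a gene on the same strand), the scramblase Ano6 (89.8 and 100.5), the carbonic anhydrase Car13 (17.2 and 12.2) and the bicarbonate cotransporter Slc4a7 (8.61 and 19.1) differed by less than their spread. The sodium bicarbonate cotransporter Slc4a4, which brings bicarbonate into the cell, had 72.4 ± 38.9 and 49.2 ± 28.5 CPM (SD, n = 4 each) and was higher in the LLRCs of all 4 mice, as were 7.74% of all genes tested.

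Sodium, potassium and proton transport had 14 of 18 genes tested, 9 above and 5 below 0, with a median of 0.27. The sodium pump subunits Atp1b1 (702.4 and 590.3 CPM) and Atp1b3 (39.7 and 66.0) and the sodium glucose cotransporter Slc5a1 (465.8 and 379.0) all had edgeR adjusted p-values of 0.9999. Slc5a1 was higher in the LLRCs of all 4 mice, with overlap between the groups. Among the other water channels 3 of 7 were tested, 1 above and 2 below 0, with a median of -0.35. Aqp8 (1.43 and 1.80 CPM), Aqp9 (1.40 and 6.49), Aqp11 (4.85 and 4.11) and Aqp5 (0.988 and 0.408, not tested) were all below 10 CPM on average. For bile acid uptake and export 5 of 8 genes were tested, 3 above and 2 below 0, with a median of 0.36. The nuclear receptors Nr0b2 (58.8 and 41.6 CPM) and Nr1h4 (29.6 and 37.8) and the exporters Abcc3 (38.6 and 40.9) and Abcc4 (16.9 and 12.8) did not pass the test (edgeR adjusted p = 0.9999). Slc51a, Slc51b and Fabp6 of this group, and Bsnd and Kcnn3 of the others, were at 0 in all libraries.

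Kcne3, the regulatory subunit of a basolateral potassium channel that supports chloride secretion, varied more between mice than between sorts. Its levels were 1163, 46.8, 31.6 and 826.5 CPM in LLRCs and 1149, 68.9, 26.7 and 878.6 CPM in non-LRCs. Both libraries of JV602 and JV6314 were high and both of JV621 and JV624 were low, while the 2 sorts of a mouse stayed within 0.55 on the log2 scale. Between sorts the log2 fold change was -0.04 ± 1.33 (SE; edgeR adjusted p = 0.9999). That fit had no term for the mouse, so its SE holds the spread between mice. Within JV602, JV621, JV624 and JV6314 the log2 ratio of LLRC to non-LRC was 0.02, -0.55, 0.24 and -0.09. The range of the 4 mouse means was 5.29 on the log2 scale. Of 1507 genes with a mean of at least 100 CPM, 0 had a larger range, and the median range was 0.83. For comparison the range was 0.59 for Cftr and 1.30 for Car2. Kcne3 was singled out after its values had been seen.

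**Figure D5:**
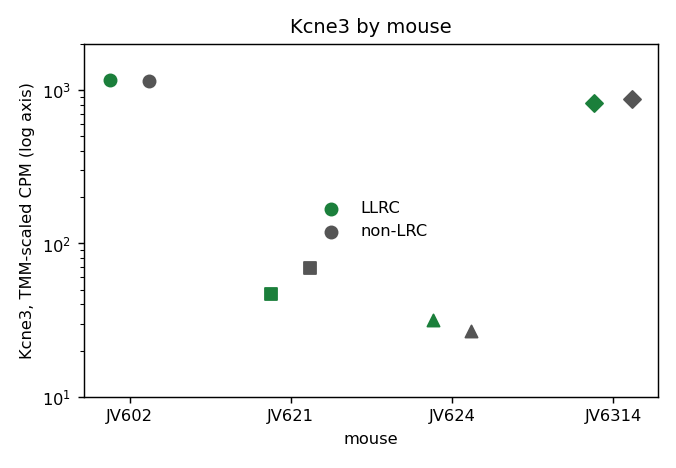
Kcne3 in TMM-scaled CPM on a log axis, by mouse, with the LLRC library in green and the non-LRC library in grey. Both libraries of JV602 and JV6314 lie between 826.5 and 1163 CPM and both of JV621 and JV624 between 26.7 and 68.9 CPM.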

How the data were processed

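RNA was measured in 8 sorted populations, 2 from each of 4 mice. The deposited table holds unnormalised read counts for each gene, which the authors made with HTSeq (union mode, unstranded, exons of GRCm38.p4, Ensembl), so reads in exons shared by genes were dropped. The aligner is not given in the sources used here. The authors' table of fold changes and p-values was not used. Of 46603 row identifiers 46091 matched GENCODE M21, which gave names, coordinates and exon lengths. Counts were tested with edgeR 4.0.16 (R 4.3.3; filterByExpr, TMM, quasi-likelihood, a model of the sort alone, Benjamini-Hochberg adjustment over 13605 genes), and log2 ratios within a mouse used CPM + 0.5. Alternatives included DESeq2 1.42.0, limma 3.58.1 (voom with sample quality weights), other scalings and filters, left-out libraries and the mouse as a block. Same-numbered libraries come from the same animal, and their deviations from the group means correlated at 0.004 to 0.179.

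The members and gene lists were chosen with earlier results of these data known. All 10 members are named. Of the wider genes those with the highest exon-length-scaled levels (up to 4 a group) and the one with the smallest p in each group are named, along with genes at p below 0.05; some genes are not reported here. Patterns were compared for Cftr, Sctr, Aqp1 and Car2.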

Additional observations from a re-analysis of the deposited data

Results flagged for a closer look

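In each group of 4 libraries, the level of each secretion gene and each wider gene reported with its values was checked for a single library far from the other 3 with Dixon's criterion, which flags about 1 in 20 groups by chance. Of 72 groups read in at least 2 libraries 5 held such a library, and in 2 more the gene was read in 1 library only, which meets the criterion whatever the count. Among the secretion genes, Ano1 was at 45.8 CPM in the non-LRC library of JV6314 and at 79.5 to 83.1 CPM in the other non-LRC libraries. Car2 was at 383.2 CPM in the non-LRC library of JV621 and at 111.7 to 136.9 CPM in the others. In the groups read in 1 library, Gpbar1 was at 1.25 CPM in the non-LRC library of JV602 and at 0 in the others, and Slc9a3 was at 0.441 CPM, 3 counts, in the LLRC library of JV624 and at 0 in the others. Of the wider genes, the nucleotide receptor P2ry1 was at 128.8 CPM in the non-LRC library of JV621 and at 2.05 to 7.39 CPM in the others. The anchor protein gene Akap9 was at 69.4 CPM in the non-LRC library of JV602 and at 42.8 to 45.9 CPM in the others, and the receptor gene Vipr1 was at 3.89 CPM in the LLRC library of JV6314 and at 0.710 to 0.969 CPM in the others. In 4 of the 5 groups read in more than 1 library, the library standing apart was a non-LRC library.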

How the results depend on the processing

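In the test reported 0 secretion genes were called at an adjusted p below 0.05. The count was 1, Aqp1, with DESeq2, the edgeR exact test, the newer dispersion form of edgeR and no expression filter. Without single libraries or mice it ran from 0 to 1, being 1 without the non-LRC library of JV602. Of the wider genes 1 (Adcy4) was called with DESeq2, the exact test and the newer form. Over all genes 0 were called in the test reported (702 at an unadjusted p below 0.05), 221 with DESeq2, 159 with the exact test, 73 with the newer form, 11 with no filter, 0 with limma-voom and sample quality weights (886 unadjusted) and 0 to 6 with libraries left out, the 6 without the non-LRC library of JV602. The fit with the mouse as a block changed no call, with a log2 fold change of -3.93 for Aqp1 (adjusted p = 0.194) and 1.53 for Cftr, and it turned Car2 to 0.027. The sign of Ano1 also turned with this weighted limma-voom fit (-0.025) and on scaling to cholangiocyte markers (-0.15), and that of Car2 with the same fit (0.39). With libraries left out, the log2 fold change ran from -0.22 to 0.26 for Ano1, from -0.55 to 0.48 for Car2 and from -0.567 to 0.063 for Slc4a2. Cftr, Sctr, Adcy6, Slc12a2 and Aqp1 kept their direction in all 24 alternatives, with ranges of 0.92 to 1.96, 0.17 to 0.98, 0.02 to 1.08, -1.40 to -0.39 and -4.38 to -3.40. The cause of these changes was not tested. Dividing by the longest transcript in place of all exons gave 1.64 and 1.80 CPM per kb for Slc4a2 and 2.09 and 3.61 for Slc12a2 in LLRCs and non-LRCs, and put Slc4a2 above Sctr in both sorts and Slc12a2 above Sctr in LLRCs. Depth limits Sctr, Adcy6, Gpbar1 and Slc9a3, which had under 100 counts in every library, and p-values of 4 against 4 libraries rest on the spread between mice.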

Other observations

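Of the 92 wider genes, 15 to 20 were at 0 in each LLRC library and 24, 44, 16 and 33 in the non-LRC libraries, in the mouse order used above, and 1 to 3 of the 10 secretion genes were at 0 per library. The patterns nearest to that of Kcne3 over the 8 libraries were those of Ciart (root-mean-square log2 difference 0.936), Kctd14 (1.05) and Dsg1a (1.21), against a spread of 2.33 for Kcne3 itself. Kcne3 lies at chr7:100176502-100184869 and Kctd14 at chr7:97451323-97459557 in GRCm38. Ciart, the nearest, lies on chromosome 3, and Dsg1a on chromosome 18. A link between position and level was not tested. These genes were looked up after the values of Kcne3 had been seen.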
